A study of Mus musculus with 16 samples.

Results

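The cells described here are CD4+IL-4eGFP+ cells of the mesenteric lymph node (MLN) whose transcripts of 5 genes of recent T cell receptor (TCR) stimulation, *Tnfrsf9*, *Egr2*, *Nr4a3*, *Csf2* and *Il2*, added up to 2 or more unique molecular identifiers (UMIs, each standing for 1 captured RNA molecule). Such cells, called high-sum cells below, made up 256 of the 3216 MLN cells that had over 500 UMIs, over 500 genes, under 7% mitochondrial UMIs and a productive TCRα and TCRβ chain, out of 4714 such cells of lung and MLN together. MLN 1 held 182 of them among 2462 cells (7.39%, exact 95% Clopper-Pearson interval 6.39 to 8.50) and MLN 2 held 74 among 754 cells (9.81%, 7.79 to 12.2). They were set against the 2596 MLN cells without a single UMI of the 5 genes (zero-sum cells, 2012 in MLN 1 and 584 in MLN 2), while 364 cells with a sum of 1 lay in between. Summed per mouse, the high-sum cells of both mice carried more transcripts of NR4A and EGR factors and of several activation receptors and cytokines. They also carried more of genes for ribosome building and fewer of gut homing and lymph node exit genes. High-sum cells with *Tnfrsf9* and no *Egr2*, however, lay near the zero-sum level of *Egr1* in both mice. By the same rule in 2 other mice, 202 of the 285 risen genes tested there passed again in the same direction. Of the 133 fallen genes 56 did, of the 8 fallen gut homing genes only *S100a6*. Of all 8996 genes tested there, 6.09% passed upwards and 3.7% downwards.

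The animals were 4get mice on a C57BL/6 background, whose *Il4* locus reports its activity as eGFP, so IL-4eGFP+ marks cells with an active *Il4* locus and not cells that secreted IL-4 at harvest. All mice had received 500 larvae of *Nippostrongylus brasiliensis* (Nb), a helminth that passes through lung and gut, 10 days earlier, and no uninfected mouse was analysed here. In the first run, lung and MLN of 2 mice, aged 13 weeks, gave 4 libraries of 5000 sorted cells each, with 5′ RNA and TCR sequencing, and in the second run MLN and mediastinal lymph node (medLN) cells of 2 other mice, aged 10 weeks, carried hashtag antibodies and were split by the sort into 1 library of IL-4eGFP+ and 1 of IL-4eGFP- cells, where the TCR was no criterion. Depth was 14512767 UMIs over the kept cells of MLN 1 and 4477888 over those of MLN 2, and the median cell held 4980 and 4971 UMIs. The 4 libraries of the first run shared 0 to 10 cell barcodes by pair.

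When a T cell meets its antigen, the TCR signals through calcium and NFAT, through MAP kinases and AP-1, and through NF-κB. Within the first hours this switches on NR4A and EGR genes, then surface receptors of the TNF receptor family, cytokines and the MYC-driven growth programme, while genes of quiescence and of exit from the node are turned down. The 5 genes that define the high-sum cells belong to this early wave: *Egr2* encodes a zinc finger transcription factor that restrains activation, *Nr4a3* an orphan nuclear receptor, *Tnfrsf9* the costimulatory receptor 4-1BB, *Il2* the T cell growth factor interleukin 2 and *Csf2* the myeloid growth factor GM-CSF.

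Since *Egr2*, *Tnfrsf9* and *Nr4a3* carried most of the sums and *Nr4a1* had the largest rise in the comparison below among genes called, higher in both mice and at 50 CPM or more, the DNA before a transcription start of these 4 genes is shown, as RefSeq gives it for GRCm38.p6. All 4 genes lie on the plus strand. Capitals mark matches, on either strand, to a cyclic AMP response half-site (TGACGT), an AP-1 site (TGANTCA), an NFAT core (TGGAAA) or an EGR site (GCGNGGGCG), none of which overlap here.
*Egr2*, chr10:67537316-67537565: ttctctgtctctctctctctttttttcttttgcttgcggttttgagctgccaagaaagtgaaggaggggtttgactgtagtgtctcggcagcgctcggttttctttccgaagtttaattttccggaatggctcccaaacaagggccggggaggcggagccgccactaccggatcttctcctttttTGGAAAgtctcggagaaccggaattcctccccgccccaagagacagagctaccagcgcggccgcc
*Tnfrsf9*, chr4:150919905-150920154: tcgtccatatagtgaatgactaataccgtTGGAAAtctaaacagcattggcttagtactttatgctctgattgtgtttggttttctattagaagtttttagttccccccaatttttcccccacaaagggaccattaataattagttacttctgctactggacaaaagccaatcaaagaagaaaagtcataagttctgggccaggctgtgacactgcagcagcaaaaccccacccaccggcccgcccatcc
*Nr4a3*, chr4:48045055-48045152: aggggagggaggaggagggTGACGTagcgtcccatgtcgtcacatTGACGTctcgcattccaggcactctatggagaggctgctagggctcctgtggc
*Nr4a1*, chr15:101266596-101266845: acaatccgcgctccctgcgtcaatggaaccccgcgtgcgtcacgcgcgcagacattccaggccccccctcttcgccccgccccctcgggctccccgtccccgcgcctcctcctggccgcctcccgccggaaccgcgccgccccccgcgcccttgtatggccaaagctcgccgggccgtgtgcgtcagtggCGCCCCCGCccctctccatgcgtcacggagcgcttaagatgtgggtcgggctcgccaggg
Where RefSeq lists several starts of a gene, the one with the most matches is shown. The windows of *Egr2*, *Tnfrsf9* and *Nr4a1* lie in introns of longer transcripts of these genes in GENCODE, and that of *Nr4a3* ends where its first exon begins. The NFAT core lay 65 to 60 bases before the start of *Egr2* and 221 to 216 bases before that of *Tnfrsf9*, and the EGR site 60 to 52 bases before that of *Nr4a1*. The half-sites shown for *Nr4a3* lay 231 to 226 and 205 to 200 bases before its RefSeq start, and another, 147 to 142 bases before it, lies in the exon and is not shown. Among the 250 bases before each of 32851 mouse starts, 6.47% held the half-site, 6.75% the AP-1 site, 18.6% the NFAT core and 4.70% the EGR site, and of 27025 genes 7.29%, 7.82%, 20.9% and 5.33% held them before at least 1 start. Of the 15 genes with the largest such rise, 10 were found in this table, and 2, 0, 6 and 2 of them held the respective letters before at least 1 start. A match describes these letters and not a bound site.

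The rule itself fixes the level of its 5 genes, so their values are given only to say what the high-sum cells were. *Egr2* was detected in 109 of 182 high-sum cells of MLN 1 (59.9%) and 54 of 74 of MLN 2 (73.0%), and *Tnfrsf9* in 95 (52.2%) and 33 (44.6%). At least 1 of this pair was present in 172 of 182 cells (94.5%) and 71 of 74 cells (95.9%), and both together in 32 and 16. *Nr4a3* was found in 36 and 9 cells, *Il2* in 16 and 10, and *Csf2* in 2 and 1. The label of recent activation thus rested on *Egr2* and *Tnfrsf9* in nearly all cells, and hardly at all on *Csf2*. A single gene supplied the whole sum in 119 cells of MLN 1 and 47 of MLN 2.

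The median sum was 3 in both mice. Just inside the threshold, 61 cells of MLN 1 and 26 of MLN 2 had a sum of 2, and just outside it 268 and 96 cells had a sum of 1. A sum of 5 or more was reached by 68 and 22 cells, with a highest sum of 59 in MLN 1 and 259 in MLN 2. This MLN 2 cell, with 9185 UMIs in all, held 112 of the 112 *Csf2* UMIs and 117 of the 136 *Il2* UMIs of its high-sum cells, together with all 56 *Il3*, all 42 *Ccl1* and 130 of 131 *Il13* UMIs. The median high-sum cell held 6112 and 5398 UMIs, the median zero-sum cell 4899.5 and 4894.5, and a sum of UMIs depends on depth. After each cell with at least 2000 UMIs had been thinned to 2000, the share of high-sum cells was 3.32% in MLN 1 and 4.71% in MLN 2. No cell type that should lack these 5 transcripts was in the sort, and the sum that free RNA alone would give was not measured.

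**Figure D1:**
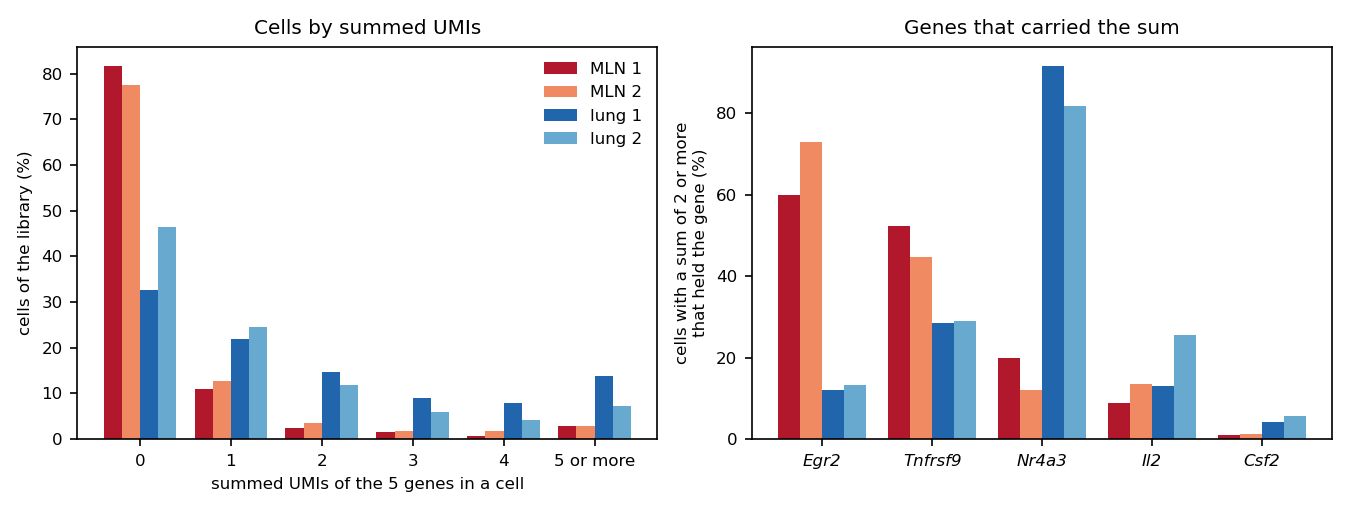
Share of cells (%) of each first-run library by the summed UMIs of the 5 genes (left), and share of cells with a sum of 2 or more (%) in which each of the 5 genes was detected (right), for MLN 1, MLN 2, lung 1 and lung 2. *Egr2* and *Tnfrsf9* led in the MLN and *Nr4a3* in the lung, where it was detected in 91.6% and 81.8% of the high-sum cells.

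To ask what else differed in these cells, UMIs were summed per gene over the high-sum and over the zero-sum cells of each mouse, since cells of 1 mouse are not replicates. Values of such sums are given as counts per 1000000 UMIs (CPM) after TMM scaling, MLN 1 first and MLN 2 second. A sum does not separate a change in all cells from one in a few, and neither can more cells of a kind be told apart from more RNA per cell. The 5 rule genes and the TCR genes were left out of the test. Of 9352 genes tested, 421 (4.5%) passed an adjusted p of 0.05 in edgeR's quasi-likelihood test, 287 of them higher (3.07%) and 134 lower (1.43%) in high-sum cells. With a block for each organ of each mouse, which sets high-sum beside zero-sum cells of the same sample, the count was 1199, which included all 421. The count was 182, 176 of them shared, when zero-sum cells were drawn to the depth of high-sum cells, 193, 188 of them shared, in DESeq2, and 14 without MLN 1 and 35 without MLN 2, where the lone mouse was assumed to vary like the other groups. These genes were counted in the same cells that the rule chose, and the 2 mice of the second run, given further below, are the samples that the rule did not use.

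The NR4A and EGR factors, which the TCR induces within the first hour, stood at the top. All 5 members of this list other than the rule genes passed the test upwards, with a median log2 fold change of 4.25 against -0.04 over all genes tested. *Nr4a1*, the nuclear receptor Nur77 and a standard marker of TCR signalling, was at 5.55 and 6.22 CPM in zero-sum cells and 255 and 197 CPM in high-sum cells (log2 fold change 5.31 ± 0.25 SE, adjusted p = 8.6e-09). Its transcript was seen in 54 of 182 and 19 of 74 high-sum cells, and in 48 of 2012 and 16 of 584 zero-sum cells. *Egr1*, an immediate early zinc finger factor, went from 39.1 and 40.3 CPM to 424 and 494 CPM (log2 fold change 3.52 ± 0.23, adjusted p = 4.4e-07). *Egr3*, which acts with *Egr2* to restrain activation, went from 2.69 and 5.92 CPM to 77.4 and 59.6 CPM (log2 fold change 4.25 ± 0.33, adjusted p = 3.0e-06). For all 3 genes both mice were far higher in high-sum cells. *Nr4a2* and *Egr4* were rarer, at 15.2 and 50.3 CPM and 13.8 and 9.31 CPM in high-sum cells, and rose by a log2 fold change of 3.63 and 5.25.

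Other early factors rose in part. In the list of AP-1 and further early factors 6 of 19 genes tested were higher and none lower, with a median of 1.31. *Irf4*, whose level follows the strength of the TCR signal, was at 10.1 and 13.9 CPM in zero-sum cells and at 84.7 and 72.7 CPM in high-sum cells (log2 fold change 2.82 ± 0.21, adjusted p = 2.1e-06). *Myc*, the driver of the growth programme, was at 33.7 and 32.3 CPM and 109 and 112 CPM (log2 fold change 1.73 ± 0.28, adjusted p = 0.0024), and *Bhlhe40*, *Fosl1*, *Ier2* and *Nfatc1* also rose. In the fit with the block 11 of the 19 were higher and 1 lower. Of the NF-κB and feedback list 8 of 18 genes were higher and none lower, with a median of 0.52. *Nfkbid*, an atypical inhibitor of κB in the nucleus, went from 29.2 and 31.4 CPM to 213 and 265 CPM (log2 fold change 2.96 ± 0.19, adjusted p = 4.4e-07), and the NF-κB subunit gene *Rel* rose by a log2 fold change of 1.27, with *Relb*, *Nfkb2*, *Nfkbia*, *Nfkbib* and the survival genes *Bcl2a1b* and *Bcl2a1d* rising as well. *Tagap*, which encodes a GTPase-activating protein of activated T cells, had 19.1 and 18.6 CPM in zero-sum and 190.3 and 225 CPM in high-sum cells (log2 fold change 3.43 ± 0.48).

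Receptors of activation moved more unevenly. Of 17 costimulatory and activation receptors 6 rose and 1 fell, with a median of 0.46. *Tnfrsf4*, the costimulatory receptor OX40, was at 122 and 94.7 CPM in zero-sum cells and 364 and 309 CPM in high-sum cells (log2 fold change 1.64 ± 0.21, adjusted p = 6.3e-04). *Cd69*, which holds activated cells in the node, was at 88.3 and 57.4 CPM and 237 and 218 CPM (log2 fold change 1.62 ± 0.24, adjusted p = 0.0014). *Cd83* went from 38.7 and 33.1 CPM to 158 and 121 CPM, and *Tfrc*, *Cd200* and *Slamf1* rose as well. *Cd44*, a general marker of antigen-experienced T cells, was the 1 gene of the list that fell. *Icos* was at 279 and 293 CPM in zero-sum and 335 and 329.8 CPM in high-sum cells (adjusted p = 0.37) and *Tnfrsf18*, which encodes GITR, at 114 and 101 CPM and 121 and 149 CPM (adjusted p = 0.52), neither past the threshold.

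Among 12 inhibitory receptors *Cd160* rose and *Cd96* fell in edgeR, but neither passed in DESeq2 (adjusted p = 0.72 and 0.25). *Cd160*, a receptor for HVEM, was at 34.0 and 32.0 CPM in zero-sum and 145 and 87.6 CPM in high-sum cells (log2 fold change 1.88 ± 0.32). The checkpoint receptor genes *Pdcd1* (187 and 173 against 239.5 and 244 CPM, adjusted p = 0.69) and *Ctla4* (97.5 and 71.6 against 92.6 and 83.8 CPM, adjusted p = 0.92) did not pass in these 2 mice. The block gave 4 of the 12 higher, *Pdcd1* among them (adjusted p = 0.020), and 1 lower. Of 21 genes of TCR signal feedback 4 rose, the MAP kinase phosphatases *Dusp2*, *Dusp4* and *Dusp6* and the Ras pathway inhibitor *Spry1*, and 1 fell, *Tnfaip8l2*, and with the block 5 were higher and 4 lower. From a list of 15 genes of the IL-2 receptor and STAT5, *Il2ra*, *Il2rb* and the survival gene *Bcl2* rose, *Socs3* fell and the other 11 did not pass. *Il2ra*, the high-affinity chain of the IL-2 receptor, was at 7.98 and 6.81 CPM in zero-sum cells and 57.9 and 16.8 CPM in high-sum cells (log2 fold change 2.52 ± 0.38, adjusted p = 0.0016).

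Of 25 cytokine and chemokine genes tested 9 rose and none fell, with a median of 0.49. *Tnf* went from 14.4 and 16.9 CPM to 77.4 and 127 CPM (log2 fold change 2.65 ± 0.29, adjusted p = 1.4e-04) and was seen in 56 of 182 and 23 of 74 high-sum cells. *Il4*, the cytokine of the sort, was at 352 and 284 CPM in zero-sum cells and 687 and 501 CPM in high-sum cells (log2 fold change 0.91 ± 0.18, adjusted p = 0.009), although 1 cell of MLN 1 held 193 of the 949 *Il4* UMIs of its high-sum cells. *Cd40lg*, the helper signal to B cells, was at 214 and 269.9 CPM and 396 and 361 CPM (log2 fold change 0.66 ± 0.14, adjusted p = 0.015), and *Lif*, *Csf1*, *Tnfsf8* and *Tnfsf14* also rose. The rise of *Ccl1*, a chemokine that binds CCR8, from 4.17 and 0.296 CPM to 86.8 and 78.2 CPM, came almost wholly from single cells, with 113 of 120 UMIs in 1 cell of MLN 1 and all 42 in 1 cell of MLN 2. *Il3* passed as well, but its 56 UMIs in high-sum cells were all in the MLN 2 cell described above. When that cell was left out, a choice made after the data were seen, 421 genes were called, 409 of them shared, *Ccl1* was still called (log2 fold change 4.16, adjusted p = 0.0061) and *Il3* was not (adjusted p = 0.90).

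*Il13*, a Th2 effector cytokine, was at 9.98 and 28.1 CPM in zero-sum cells and 7.24 and 244 CPM in high-sum cells (adjusted p = 0.18), with 130 of the 131 MLN 2 UMIs in 1 cell, and *Il21*, the cytokine of follicular helper cells, was at 9.89 and 9.47 CPM and 21.0 and 18.6 CPM (adjusted p = 0.13). Neither passed in these mice. With the block *Il13* did (adjusted p = 0.00038), but without that MLN 2 cell its log2 fold change in the fit without the block was -1.52 (adjusted p = 0.57).

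Most genes of growth rose. Of 24 genes for ribosome building and translation 17 were higher and none lower, with a median of 0.82. *Srm*, the spermidine synthase, was at 44.2 and 43.8 CPM in zero-sum and 132 and 114 CPM in high-sum cells (log2 fold change 1.51 ± 0.15, adjusted p = 3.9e-05), and the nucleolar GTPase gene *Gnl3* at 33.3 and 28.7 CPM and 73.8 and 65.2 CPM (log2 fold change 1.17 ± 0.21). *Npm1*, the most abundant gene of this list, was at 831 and 743 CPM and 1246 and 896 CPM (adjusted p = 0.12, and 0.00023 with the block). Of 21 genes of glycolysis and nutrient uptake 6 rose and none fell, among them the hexokinase gene *Hk2* (log2 fold change 2.30 ± 0.47) and the amino acid transporter gene *Slc7a5* (log2 fold change 1.57 ± 0.31), and with the block 12 rose. The cell cycle list also rose in part, with 8 of 25 genes higher and a median of 0.74, and its risers were mainly replication genes such as *Mcm5*, *Mcm6* and *Uhrf1*. *Mki67*, the usual marker of cycling cells, was at 53.6 and 41.1 CPM and 94.8 and 63.3 CPM and did not pass (adjusted p = 0.13). Under the block 16 of the 25 genes were higher, *Mki67* among them (adjusted p = 0.0054). A UMI of *Mki67* or *Top2a* was present in 20.3% (14.7 to 26.9) of high-sum and 13.5% (12.1 to 15.1) of zero-sum cells of MLN 1, and in 13.5% (6.68 to 23.5) and 13.2% (10.5 to 16.2) of MLN 2. Leaving these cells out, a choice made after the data were seen, gave 293 calls over all genes, 246 of them shared. Leaving out the cells with 2 or more UMIs of the cell cycle list gave 38 calls, 35 of them shared, but kept only 29 of 182 and 17 of 74 high-sum cells and 550 of 2012 and 160 of 584 zero-sum cells.

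**Figure D2:**
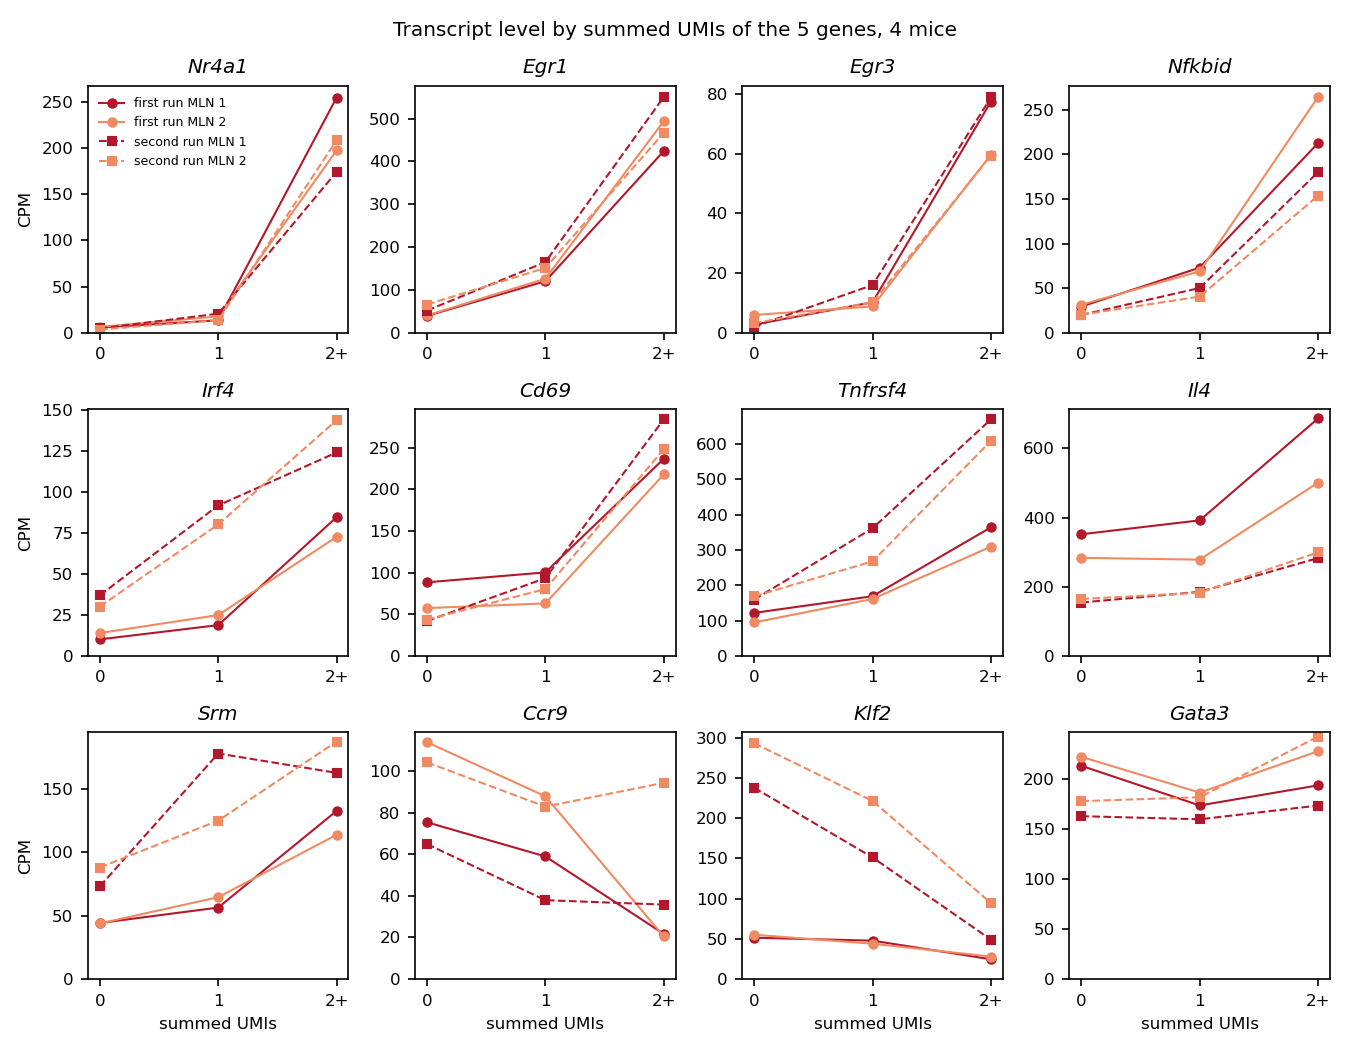
CPM of 12 genes summed over MLN cells with a sum of 0, 1 or 2 and more, for the 2 mice of the first run and the 2 mice of the second run, with 1 point per mouse and lines joining the levels of a mouse. *Nr4a1* lay at 5.55 and 6.22 CPM in zero-sum and 255 and 197 CPM in high-sum cells of the first run, and at 4.60 and 3.33 CPM and 174 and 209 CPM in the second.

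Genes of gut homing and effector state fell in part. In that list 8 of 19 genes were lower and none higher, with a median log2 fold change of -0.75. *Ccr9*, the chemokine receptor for homing to the small intestine, was at 75.4 and 114 CPM in zero-sum cells and 21.7 and 20.5 CPM in high-sum cells (log2 fold change -2.12 ± 0.38, adjusted p = 0.0052). *Cxcr6*, a receptor of tissue effector cells, was at 154 and 160.1 CPM and 69.5 and 65.2 CPM (log2 fold change -1.21 ± 0.16, adjusted p = 8.4e-04), and *Plac8*, *S100a4*, *S100a6*, *Cysltr1* and the integrin genes *Itgb7* and *Itgae* were lower as well. *Itgae*, the αE chain of the integrin CD103, was lower in both mice of the first run (5.90 and 8.29 against 1.45 and 0 CPM, log2 fold change -2.63, resting on 2 UMIs in high-sum cells of MLN 1 and none in MLN 2, where 3 UMIs would give 5.59 CPM) and higher in both of the second (10.2 and 8.71 against 34.6 and 40.5 CPM, log2 fold change 2.00), past the threshold each time.

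Of 20 genes of quiescence, migration and lymph node exit 3 fell and none rose, with a median of -0.46. *Ccr7*, the receptor that keeps T cells in the node's T cell zone, was at 42.5 and 48.2 CPM in zero-sum cells and 20.3 and 20.5 CPM in high-sum cells (log2 fold change -1.14 ± 0.29, adjusted p = 0.033), and the PI3 kinase inhibitor gene *Pik3ip1* fell as well (log2 fold change -1.54). The exit receptor gene *S1pr1* (46.3 and 46.5 against 23.9 and 24.2 CPM, adjusted p = 0.16), its regulator *Klf2* (51.4 and 55.1 against 24.6 and 27.9 CPM, adjusted p = 0.076) and the IL-7 receptor gene *Il7r* (56.2 and 112 against 43.4 and 33.5 CPM, adjusted p = 0.095) were lower in high-sum cells of both mice without passing the test. All 3 passed with the block (adjusted p = 0.0033, 0.0044 and 0.0073), and 10 of the 20 genes were lower and none higher.

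The remaining genes with the largest changes came from no single list. Those that rose included *Marcksl1* (44.3 and 33.7 against 282 and 249.6 CPM), which binds actin, the histone demethylase gene *Kdm6b* (log2 fold change 2.34), *Rilpl2* (log2 fold change 1.94), *Angptl2* (log2 fold change 2.40) and the unnamed gene model *Gm45716* (log2 fold change 2.50). Among genes called in edgeR, lower in both mice and at 50 CPM or more, the largest fall was that of *St3gal6*, a sialyltransferase gene. It went from 49.9 and 53.3 CPM to 7.96 and 11.2 CPM (log2 fold change -2.52 ± 0.46). *Socs3*, a suppressor of cytokine signalling, went from 95.03 and 66.6 CPM to 23.9 and 14.9 CPM (log2 fold change -1.96 ± 0.33), and the TCR signal inhibitor gene *Sit1*, the protease gene *Lgmn*, the adhesion gene *Pecam1*, *Lmo4* and *Lpar6* were also lower. Among the genes named as passing above, *Bcl2*, *Bcl2a1d*, *Ccr7*, *Cd44*, *Itgae*, *Lpar6*, *Nfkbia*, *Nfkbib*, *S100a4*, *S100a6* and *Tnfaip8l2*, like *Cd160* and *Cd96*, did not pass in DESeq2, and *Egr4*, *Fosl1*, *Il3*, *Lif*, *Spry1* and *Tfrc* had no adjusted p there.

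Genes of T helper identity were read from 2 lists. Of 11 Th2 genes tested *Ccr8* and *Il4* rose and none fell (with the block 3 and 1), *Ccr8* not in DESeq2 (adjusted p = 0.12). *Ccr8* was at 0.607 and 2.07 CPM in zero-sum cells and 18.1 and 3.73 CPM in high-sum cells. Its MLN 2 value in high-sum cells rested on 2 UMIs, where 3 UMIs would give 5.59 CPM. *Gata3*, the Th2 master regulator, was at 213 and 222 CPM in zero-sum cells and 193 and 227 CPM in high-sum cells (log2 fold change -0.06 ± 0.15, adjusted p = 0.88). Of 16 follicular helper genes 3 rose, *Angptl2*, *Pou2af1* and *Cd200*, and none fell (with the block 7 and 2), with no adjusted p for *Pou2af1* in DESeq2, while *Cxcr5*, the homing receptor of the follicle, was at 142 and 117 CPM and 134 and 116 CPM (adjusted p = 0.97). None of 9 genes of CD4 T cell identity passed in edgeR or in DESeq2, with 2 at an unadjusted p below 0.05, and with the block 3 were lower. None of 24 interferon response genes passed in either tool, with 4 below an unadjusted p of 0.05 and a list median of -0.56. The block gave 12 of these 24 lower and none higher. *Ifit3*, an interferon-induced gene, was at 23.7 and 14.2 CPM and 7.96 and 3.73 CPM (adjusted p = 0.38, and 0.030 with the block).

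Markers of other cells and states were followed in the same sums. Of 19 genes linked to tissue dissociation, a list that shares *Egr1* and *Ier2* with the early factors, 5 rose and 1 fell (with the block 10 and 2), and their summed level was 6068 and 5277 CPM in zero-sum and 9007 and 7806 CPM in high-sum cells, led by *Hsp90ab1* and *Hspa8*. Their part in the rise of early genes was not tested. The 12 B cell markers summed to 258 and 289 CPM in zero-sum cells and 136 and 132 CPM in high-sum cells, with *Ighm* the most abundant and *Ms4a1* and *Ebf1* among those at 0 in high-sum cells, and *Ighm*, the 1 gene tested, fell. The 18 myeloid and dendritic markers summed to 175 and 219 CPM against 171 and 322 CPM, with *Cst3* and *Cd74* the most abundant, with 6 genes at 0 among them *Itgax* and *Flt3*, and 0 of 10 tested passed (2 at an unadjusted p below 0.05, 0 in DESeq2). Of these 10, *Cd74* was higher with the block (adjusted p = 0.00049) and 1 other gene lower. The 10 NKT and innate-like markers summed to 202 and 200 CPM against 407 and 319 CPM, led by *Il2rb*, of which 2 of 7 tested rose, *Cd160* and *Il2rb*, and *Klrk1* and *Klrd1* were at 0.

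*Foxp3*, which defines regulatory T cells, was at 0.955 and 1.18 CPM in zero-sum cells and was not detected in the high-sum cells of MLN 1 or MLN 2, where 3 UMIs would have given 2.17 and 5.59 CPM. The 8 regulatory T cell markers summed to 113 and 112 CPM in zero-sum and 162 and 192 CPM in high-sum cells, led by *Ikzf2*, and 0 of 6 tested passed (3 at an unadjusted p below 0.05, 0 in DESeq2), while with the block 3 were higher, *Ikzf2* among them (adjusted p = 0.025). The 8 CD8 and NK markers summed to 114 and 18.6 CPM against 28.2 and 9.31 CPM, led by *Gzmb* at 70.3 CPM in zero-sum cells of MLN 1 and elsewhere by *Gzma* or *Cd8b1* at 15.2 CPM or less, with *Cd8a*, *Klrd1* and *Ncr1* at 0, and 0 of 3 tested passed in edgeR (1 at an unadjusted p below 0.05, 1 in DESeq2), while with the block *Gzma* and *Gzmb* were lower (adjusted p = 0.030 and 1.3e-05). Basophil and mast cell markers were at 7.46 and 3.85 CPM against 1.45 and 3.73 CPM, led by *Cd200r3*, with 7 of 8 at 0 in high-sum cells and 0 of 2 tested past any threshold, adjusted or not. The 10 exocrine pancreas and epithelial markers summed to 10.6 and 134 CPM against 27.5 and 20.5 CPM. In zero-sum cells of MLN 2 the pancreatic enzyme genes *Ctrb1* (34.3 CPM) and *Cela2a* (25.7 CPM) led, and in the other 3 sums *Epcam*, an epithelial adhesion gene, did. In high-sum cells 5 of them were at 0, and *Epcam* was the 1 of 5 tested that rose, with no adjusted p in DESeq2, while with the block 1 was higher and 4 lower. The part of these other cells in the gene results was not tested.

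The second run holds the MLN of 2 mice that the rule had not used. By the same rule 145 of 1986 IL-4eGFP+ MLN cells (7.30%) and 161 of 1998 (8.06%) were high-sum cells, against 1623 and 1622 zero-sum cells. The shares were 4.93% and 3.70% in IL-4eGFP- cells of the same nodes, whose median cell held 3342.5 and 3377 UMIs against 3320 and 3664.5. In the medLN of these mice 6.63% and 6.61% of IL-4eGFP+ cells were high-sum cells. Here 881 of 8996 genes tested (9.79%) passed in edgeR, 548 higher (6.09%) and 333 lower (3.7%), with 185 left without MLN 1, 127 without MLN 2 and 347 with zero-sum cells drawn to the depth of high-sum cells.

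The genes found in the first run mostly went the same way. Of the 287 genes higher in the first run 285 were tested in the second, 281 of these (98.6%) had the same sign and 202 passed again, which was 70.4% of the first set and 36.9% of the second. Of the 134 lower genes 133 were tested, 126 (94.7%) had the same sign and 56 passed, 41.8% of the first set and 16.8% of the second. Over all 8996 genes tested in the second run, 6.09% were called higher and 3.7% lower. Both runs were divided by the same 5-gene sum, and the share of all genes with the same sign in both is not given here. The median log2 fold change of the higher genes was 1.01 in the first and 0.69 in the second run, and that of the lower genes -0.82 and -0.51. *Nr4a1* was at 4.60 and 3.33 CPM in zero-sum and 174 and 209 CPM in high-sum cells of the second run's MLN 1 and MLN 2 (log2 fold change 5.60 ± 0.22, adjusted p = 5.1e-10), and *Egr1* was at 51.6 and 65.7 CPM and 550.3 and 467 CPM (log2 fold change 3.11 ± 0.14). Each was higher in the high-sum cells of both mice. *Irf4* (36.9 and 30.1 against 124 and 144 CPM, log2 fold change 2.01), *Nfkbid* (19.8 and 20.1 against 180.3 and 154 CPM, 3.05) and *Tagap* (19.8 and 23.2 against 207 and 123 CPM, 2.91) rose again.

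**Figure D3:**
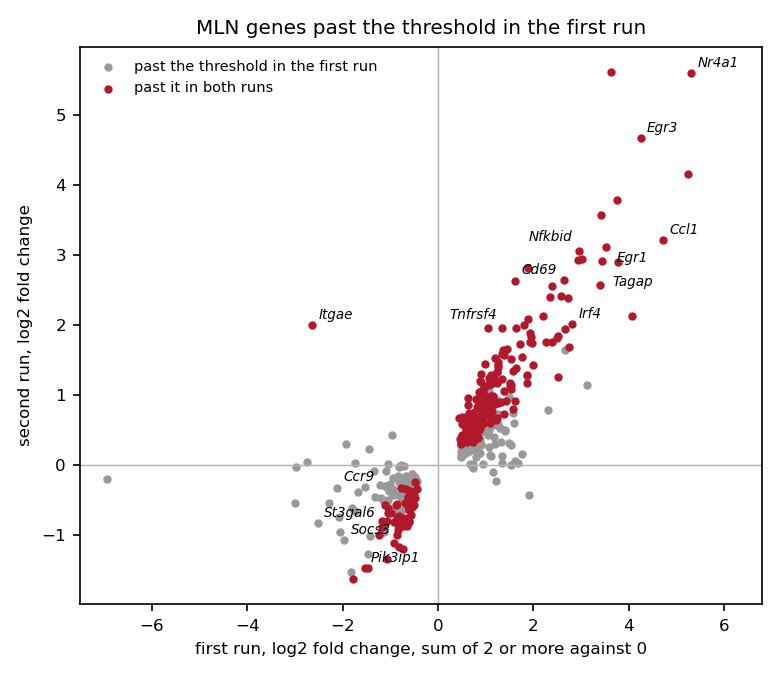
Log2 fold change of high-sum against zero-sum MLN cells in the first run (x axis) and in the second run (y axis) for the genes that passed the test in the first run and were tested in both, with those past the threshold in both runs in red. *Itgae* is the 1 gene past the threshold with opposite signs, at -2.63 and 2.00.

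By list, the second run gave 5 of 5 NR4A and EGR factors higher (median 4.67), 12 of 15 AP-1 and early factors, 11 of 18 NF-κB genes, 11 of 17 activation receptors, 13 of 19 cytokines and 23 of 24 growth genes, with none lower in these 6 lists and a median of -0.02 over all genes. Of 16 follicular helper genes 6 were higher, among them *Ascl2*, *Btla* and *Icos*, and 3 lower, *Tox2*, *Sh2d1a* and *Slamf6*, and of 11 Th2 genes *Il4*, *Il5* and *Ccr8* were higher. The rise of *Il5* rested on MLN 1, without which its log2 fold change was -7.63, and it did not pass in DESeq2 (adjusted p = 0.12). Of 12 inhibitory receptors 5 were higher and *Cd96* lower, of 21 genes of TCR signal feedback 6 higher and 3 lower, of 15 of the IL-2 receptor and STAT5 4 higher, of 21 of glycolysis and uptake 10 higher, and of 22 interferon response genes 2 lower. *Tnfrsf4* reached 669.7 and 609 CPM from 159 and 169 CPM (log2 fold change 1.96 ± 0.12), and *Cd69* 284 and 248 CPM from 41.8 and 43.7 CPM (log2 fold change 2.63 ± 0.15). Several genes that had missed the threshold in the first run passed here. The exit receptor gene *S1pr1* went from 49.1 and 58.7 CPM to 15.5 and 10.8 CPM (log2 fold change -2.07 ± 0.27, adjusted p = 2.2e-04), *Klf2* from 238 and 293 CPM to 48.9 and 94.4 CPM (log2 fold change -1.85 ± 0.24, adjusted p = 1.8e-04) and *Il7r* fell as well (log2 fold change -0.86). In all 8 of 20 quiescence and exit genes and 6 of 19 effector and gut homing genes were lower, with *Itgae* the 1 gene of these lists that was higher. Of the genes of these lists that had fallen in the first run, *S100a6* and *Pik3ip1* fell again, and *Itgb7* passed with the block alone (adjusted p = 0.0028). *Ccr7* (54.6 and 59.0 against 35.8 and 43.2 CPM, adjusted p = 0.16) and *Cxcr6* (105 and 118 against 83.6 and 97.1 CPM, adjusted p = 0.32) did not pass here. *Ctla4* (log2 fold change 1.28 ± 0.24) and *Il21* (log2 fold change 0.89 ± 0.19) rose.

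Markers of other cells were followed here too. *Foxp3* was at 7.04 and 7.43 CPM in zero-sum and 37.0 and 40.5 CPM in high-sum cells (log2 fold change 2.42 ± 0.34, adjusted p = 4.4e-04), with a UMI in 16 of 145 and 19 of 161 high-sum cells, and 4 of 7 regulatory T cell markers tested rose, their sum going from 155 and 173 CPM to 387 and 325 CPM. The CD8 and NK markers summed to 195 and 588 CPM in zero-sum and 396 and 1559 CPM in high-sum cells, led by *Gzma*, with *Cd8a*, *Klrd1* and *Ncr1* at 0 in high-sum cells, and of 3 tested *Gzmb* rose, though not in DESeq2 (adjusted p = 0.18). B cell markers went from 562 and 348 CPM to 152 and 146 CPM, led by *Ighm*, with 2 of 5 tested lower, *Ighm*, which did not pass in DESeq2 (adjusted p = 0.064), and *Cd79a*, and myeloid markers from 584 and 661 CPM to 331 and 333 CPM, led by *Cd74* in zero-sum and by *Cst3* in high-sum cells, with 4 of 8 tested lower, *H2-Aa*, *H2-Ab1*, *Fcer1g* and *Tyrobp*. Of the genes linked to dissociation 10 of 15 tested rose and none fell, and their sum went from 5851 and 7297 CPM to 9796 and 10786 CPM. NKT and innate-like markers went from 227 and 275 CPM to 510 and 402 CPM, with *Cd160* and *Il2rb* the 2 of 5 tested that rose. Basophil and mast cell markers were at 9.91 and 14.98 CPM against 31.0 and 11.7 CPM, where *Cyp11a1* rose of 3 tested (adjusted p = 0.049), and the pancreas and epithelial markers at 14.1 and 10.8 CPM against 33.4 and 39.6 CPM, where *Epcam*, the 1 gene tested, rose. DESeq2 gave no adjusted p for *Cd79a*, *Fcer1g*, *Tyrobp*, *Cyp11a1* and *Epcam*. Without the block *Gzma* and *Cd74* did not pass (adjusted p = 0.34 and 0.16 in edgeR). With the block *Gzma* was higher (adjusted p = 0.0014) and *Cd74* lower (adjusted p = 0.0098). No TCR was required of these cells, and the part of other cells in the result was not tested. The cell cycle list, of which 8 genes had risen in the first run, had 1 of 25 genes higher here, with a median of 0.13.

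The high-sum cells were not alike among themselves. With plain CPM, that is without TMM scaling, *Nr4a1* was at 48.2 and 28.4 CPM in the cells of MLN 1 and MLN 2 with a sum of 2, 118 and 113 CPM at a sum of 3 or 4 and 574 and 539.6 CPM at 5 or more, and 13.9 and 18.1 CPM in the cells with a sum of 1 that were left out. *Egr1* went through 124 and 129.6 CPM at a sum of 1, 239 and 210.0 CPM at 2, 373 and 606 CPM at 3 or 4 and 678 and 806 CPM at 5 or more. Both were higher at each step of the sum in each mouse, and in the mice of the second run as well. *Cd40lg* showed no such step between a sum of 1 (215 and 250.1 CPM) and a sum of 2 (237 and 221 CPM) and was at 659.9 and 599.5 CPM from 5 on. *S1pr1* was at 46.9 and 47.4 CPM in zero-sum cells and at 22.0 CPM at a sum of 5 or more in MLN 1, and it was not detected in the 22 such cells of MLN 2, where 3 UMIs would give 19.98 CPM. These steps are set by the rule's own sum and were not tested.

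**Figure D4:**
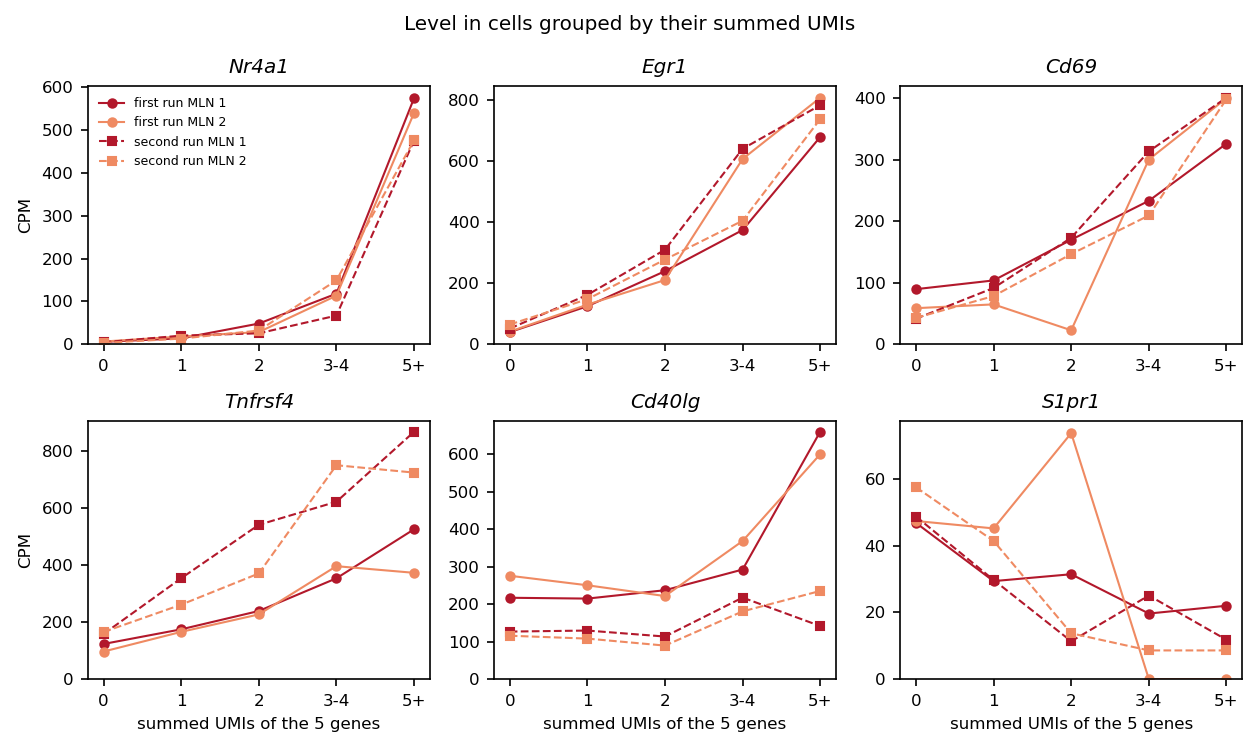
Plain CPM of 6 genes in MLN cells grouped by the summed UMIs of the 5 rule genes (0, 1, 2, 3 to 4, 5 and more), with 1 line per mouse, solid for the first run and dashed for the second. *Nr4a1* and *Egr1* go up at each step in all 4 mice, and *Nr4a1* reaches 574, 539.6, 475 and 476 CPM at 5 or more.

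High-sum cells with *Egr2* and no *Tnfrsf9* (77 and 38 in the first run, 58 and 58 in the second) were set beside those with *Tnfrsf9* and no *Egr2* (63 and 17, 60 and 76), a split chosen after the data were seen and given without a test. Values follow for first run MLN 1 and MLN 2 and second run MLN 1 and MLN 2, in plain CPM. *Nr4a1* was at 348, 229, 313 and 496 CPM in *Egr2* cells and at 38.3, 6.76, 54.1 and 34.9 CPM in *Tnfrsf9* cells. *Egr1* was at 945, 829, 1334 and 1166 CPM and 34.5, 47.3, 98.4 and 84.7 CPM. Zero-sum cells, after TMM scaling, were at 5.55, 6.22, 4.60 and 3.33 CPM for *Nr4a1* and 39.1, 40.3, 51.6 and 65.7 CPM for *Egr1*. In the first run the *Tnfrsf9* cells thus lay near the zero-sum level of *Egr1* in both mice. *Nr4a1* and *Egr1*, both immediate early genes, were higher beside *Egr2* than beside *Tnfrsf9* in each of the 4 mice. The split uses 2 of the rule's own genes, and the share of all genes that differ this way is not given here. In the 17 *Tnfrsf9* cells of first run MLN 2, however, *Nr4a1* rested on 1 UMI and *Cd69*, given next, on 3 UMIs, where 3 UMIs stand for 20.3 CPM. *Cd69* lay the same way, at 483, 346, 648 and 603 CPM and 68.9, 20.3, 76.3 and 46.5 CPM, and so did *Cd40lg*, at 733, 483, 321 and 337 CPM and 117, 122, 54.1 and 69.8 CPM.

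The genes *Tnfrsf4*, *Srm* and *Mki67* lay the other way. *Tnfrsf4* was at 167, 117, 214 and 428 CPM in *Egr2* cells and 375, 521, 942 and 679.6 CPM in *Tnfrsf9* cells, and *Srm* at 25.7, 48.3, 55.3 and 91.8 CPM and 199, 209.6, 231 and 211 CPM. *Mki67* was at 81.2, 76.5, 22.1 and 168 CPM and 159, 94.7, 268 and 419 CPM. In each of the 4 mice these 3 genes were higher in the cells with *Tnfrsf9*. The cells with *Tnfrsf9* were also deeper, the median cell holding 6879, 6973, 4863.5 and 5581 UMIs against 5101, 5238, 4269.5 and 4174, and the part of depth in the split was not tested.

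**Figure D5:**
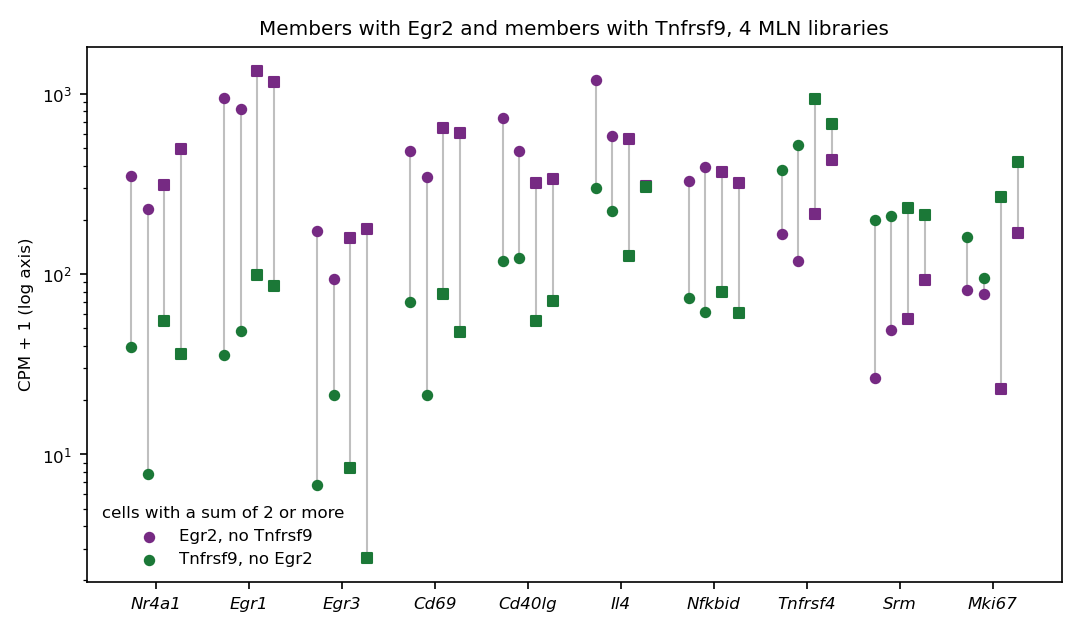
Plain CPM plus 1 (log axis) of 10 genes in MLN high-sum cells with *Egr2* and no *Tnfrsf9* and in those with *Tnfrsf9* and no *Egr2*, with circles for the 2 mice of the first run and squares for the 2 of the second and a grey line joining both values of a mouse. *Nr4a1* lies at 348, 229, 313 and 496 CPM in the former and 38.3, 6.76, 54.1 and 34.9 CPM in the latter, where the value of first run MLN 2 is 1 UMI.

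The lung of the same mice, where the same rule took 490 of 1082 cells (45.3%) in lung 1 and 121 of 416 (29.1%) in lung 2, served for comparison. After thinning to 2000 UMIs the shares were 12.5% and 8.82%. Lung high-sum cells were carried by *Nr4a3*, found in 91.6% and 81.8% of them, and only 38.0% and 38.8% held *Egr2* or *Tnfrsf9*. Between lung high-sum and zero-sum cells 2 of 9352 genes (0.0214%) passed in edgeR, *Egr3* (1.71 and 4.25 against 22.5 and 23.3 CPM, log2 fold change 3.11 ± 0.48) and *Ccl1* (41.6 and 34.0 against 427 and 249 CPM, log2 fold change 3.17 ± 0.35), both higher. In the lung the block gave 143 genes, *Nr4a1*, *Egr1* and *Ccr9* among them. DESeq2 called *Nr4a1* (adjusted p = 0.0079) and not *Ccl1* (adjusted p = 0.53). In edgeR no gene passed without lung 1, and 1 passed without any 1 of the other 3 libraries.

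The difference between the changes in MLN and lung was tested directly, in the fit over both organs. It passed for 7 of 9352 genes (0.0749%), 6 with a larger log2 fold change in the MLN (0.0642%) and 1 with a smaller one (0.0107%), and for 422 with the block. DESeq2 called 18, among them *Nr4a1*, *Egr1* and *Nfkbid*, and gave no adjusted p for *Irf4*, *Spry1*, *Srm* and *Ccr9*. The edgeR count was 3 without MLN 1, 12 without lung 1 and 23 without lung 2. *Nr4a1* was already at 694 and 532 CPM in zero-sum cells of lung 1 and lung 2 and at 1298 and 1121 CPM in high-sum cells (log2 fold change 0.98 ± 0.17), so its change was larger in the MLN by 4.33 ± 0.30 (log2, adjusted p = 2.8e-06). *Egr1* was at 108 and 124 CPM and 136 and 269 CPM in the lung, with a difference of 2.78 ± 0.32 (adjusted p = 6.6e-04). In the zero-sum cells of the MLN, *Nr4a1* was at 5.55 and 6.22 CPM and *Egr1* at 39.1 and 40.3 CPM, and the difference in these levels between organs was not tested. *Irf4* (2.40 ± 0.27), *Spry1* (3.90 ± 0.65), *Nfkbid* (2.16 ± 0.24) and *Srm* (1.60 ± 0.22) also changed more in the MLN. *Ccr9* was the 1 gene with the smaller value in the MLN, falling there while it was at 43.7 and 39.9 CPM in zero-sum and 102 and 42.2 CPM in high-sum lung cells (difference -3.05 ± 0.49, adjusted p = 0.025). Lung was digested enzymatically and the node only mashed, so organ and preparation cannot be told apart.

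In the medLN of the second run 756 of 8996 genes (8.4%) passed between high-sum and zero-sum cells, 473 higher (5.26%) and 283 lower (3.15%). *Nr4a1* was at 8.73 and 8.74 CPM in zero-sum cells and 192 and 264 CPM in high-sum cells (log2 fold change 4.70 ± 0.20), *Tnfrsf4* rose by a log2 fold change of 1.42 ± 0.12, and *S1pr1* fell (log2 fold change -1.38). *Ccr9*, which fell in the first run's MLN, was at 13.4 and 13.6 CPM in zero-sum and 4.12 and 6.07 CPM in high-sum cells of the medLN (adjusted p = 0.35), and at 64.9 and 104 CPM and 35.8 and 94.4 CPM in the MLN of these mice (adjusted p = 0.61). Among markers of other cells in the medLN, *Foxp3* (log2 fold change 2.62, adjusted p = 0.0059), *Cyp11a1* (4.53, 0.013) and *Epcam* (2.05, 0.029) rose. *Cd74* fell there (log2 fold change -1.47, adjusted p = 0.047). Their part in the medLN result was not tested. The difference between the 2 nodes was not tested either.

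The TCR of the first run's cells served to ask whether the high-sum cells came from few clones, a clone being the cells of 1 mouse that share V segment, J segment and CDR3 nucleotides of all productive chains. The 182 cells of MLN 1 belonged to 179 clones and the 74 cells of MLN 2 to 74 clones, and no clone held more than 2. The clone with the widest spread among those with 2 high-sum cells had 4 cells in the MLN and 3 in the lung of mouse 1, and used TRAV14D-2 with TRAJ22 and TRBV13-2 with TRBJ2-7. Its CDR3 sequences, shown because both high-sum cells share them to the base, were:
TRA: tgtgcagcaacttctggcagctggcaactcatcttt
TRB: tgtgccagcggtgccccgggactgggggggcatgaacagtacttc
Of the 55 other cells of these clones in MLN 1, 49 had a sum of 0 (89.1%) and 6 a sum of 1, and of the 12 in MLN 2, 10 had a sum of 0 (83.3%) and 2 a sum of 1. Among all MLN cells below the threshold the share with a sum of 0 was 88.2% and 85.9%, so the clonemates lay near the background. Cells of 1 clone thus lay on both sides of the rule in each mouse.

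Clonal expansion was read in both groups. In MLN 1, 28.0% (21.6 to 35.1) of high-sum cells and 30.1% (28.1 to 32.2) of zero-sum cells belonged to a clone of at least 2 cells in lung and MLN, and in MLN 2 these shares were 10.8% (4.78 to 20.2) and 13.9% (11.2 to 16.9). A clone also found in the lung of the mouse was carried by 7.69% (4.27 to 12.6) of high-sum and 8.002% (6.85 to 9.27) of zero-sum cells of MLN 1. In MLN 2 it was carried by 0 of 74 high-sum cells, which allows a share of up to 4.05% by 3 counts and up to 4.86% by the exact interval, and by 3.25% (1.97 to 5.03) of zero-sum cells. The invariant TRAV11 with TRAJ18 chain of NKT cells was present in 2.20% (0.602 to 5.53) of high-sum and 1.74% (1.21 to 2.41) of zero-sum cells of MLN 1, and in 4.05% (0.844 to 11.4) and 2.40% (1.32 to 3.99) of MLN 2. All these intervals overlap within a mouse, and with 2 mice no test was made. Cells with more than 1 TCRβ or more than 2 TCRα chains, a sign of cell doublets, made up 9.89% and 12.2% of high-sum cells and 6.61% and 7.36% of zero-sum cells, and without them 372 genes were called, 335 of them shared. The MLN 2 cell that held all *Il3* and *Csf2* UMIs of its high-sum cells was among those left out. *Il3* then had a log2 fold change of -1.94.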

How the data were processed

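IL-4eGFP+CD4+ cells of lung and MLN of 2 mice (RNA and TCR libraries) and hashtagged cells of medLN and MLN of 2 other mice were used. For the first run the authors deposited counts of UMIs per gene and barcode and per TCR contig, made with Cell Ranger (2.1.1 and 3.0.1 are listed) on mm10 (GRCm38). For the second run the deposited counts of UMIs per gene and hashtag were made with Cell Ranger 6.1.2, and the build is not given in the sources used here.

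Cells were kept with over 500 UMIs, over 500 genes and under 7% mitochondrial UMIs, in the first run also with a productive TCRα and TCRβ contig, which left 2462 and 754 cells of MLN 1 and MLN 2. Hashtags were called with HTODemux of Seurat 5.3.0 and 1242 IL-4eGFP+ barcodes called doublets were left out. No doublet caller was run on the first run. UMI counts were summed per library and level of the 5-gene sum (0, 1, 2 or more), and the sums were tested with edgeR 4.0.16 under R 4.3.3 (filterByExpr, TMM, quasi-likelihood test, Benjamini-Hochberg over all genes tested, threshold 0.05), with organ and level as 1 factor over the 12 sums of a run, each group holding 2 mice. Rule and TCR genes were left out. Members, gene lists (25) and tests were chosen with earlier results of these data known. Named genes were the 15 with the largest rise and the 10 with the largest fall among genes called, of 1 direction in both mice and at 50 CPM or more, up to 5 called and the 3 most abundant members of each list, a fixed set that included *Il4*, *Gata3* and *Foxp3*, and up to 5 genes in each direction for the difference between organs. Further members of lists are named from their counts, and some genes that the lists and counts include are not reported here by name.

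Numbers of mice pair the sums, since same-numbered sums come from 1 mouse. The deviations of its levels correlated at 0.180 in MLN and 0.199 in lung of the first run, and at 0.151 in MLN and 0.081 in medLN of the second. Alternatives were DESeq2 1.42.0, other size factors, no filter, a block for each organ of each mouse, left-out libraries, thinning to 2000 UMIs, depth matching, other sums, and cells of the cycle or of extra chains left out. The edgeR step was also run on simulated counts with 1 common spread for all genes, no pairing of sums and no choice of cells by the rule. Unlike these data in that, they cannot vouch for the p-values. Of 100 genes changed by a log2 of 1, it recovered 87 in the first run's setting and 97 in the second's. It made 13 and 15 false calls among 9047 and 8841 genes tested. Intervals are exact Clopper-Pearson 95% intervals (scipy 1.17.1), and like the values that 3 UMIs would give they cover counting error only. p-values rest on 2 mice per group. Promoters and motifs were read from a RefSeq table of GRCm38.p6 and annotations from GENCODE. The plots were made with matplotlib 3.10.9 under Python 3.11.15.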

Additional observations from a re-analysis of the deposited data

Results flagged for a closer look

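For 7 genes the change from zero-sum to high-sum cells differed between MLN and lung, by edgeR's test of that difference itself over 2 mice per organ. The log2 fold change was larger in the MLN by 4.33 for *Nr4a1*, 3.90 for *Spry1*, 2.78 for *Egr1*, 2.40 for *Irf4*, 2.16 for *Nfkbid* and 1.60 for *Srm*, and for *Ccr9* the difference was -3.05. In each organ both mice lay in the same direction for *Nr4a1*, higher in high-sum cells. The rule took unlike cells in the 2 organs. *Nr4a3* was detected in 91.6% and 81.8% of the high-sum cells of the lung and in 19.8% and 12.2% of those of the MLN. The part of this in the difference was not tested. Groups of 2 mice are too small to single out a mouse that stands apart.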

How the results depend on the processing

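The count of 421 genes that passed between high-sum and zero-sum MLN cells of the first run was 193 in DESeq2, 704 without a filter on low counts, 182 with zero-sum cells drawn to the depth of high-sum cells, 38 without cells holding 2 or more UMIs of the cell cycle list, 64 with 1 or more UMIs against 0, 67 after thinning to 2000 UMIs, 124 with *Tnfrsf9* and 720 with *Egr2* left out of the sum. Without 1 library at a time it ran from 14 to 590. With each organ of each mouse as a replicate block, which pairs its levels, it was 1199, and the block gave 1230 for the second run, 143 for the lung and 422 for the difference between MLN and lung. DESeq2's size factors (432) and 2 alternatives chosen after the data were seen, without cells holding *Mki67* or *Top2a* (293) and without the MLN 2 cell rich in *Csf2* (421), were among those within 1.5 times. In the second run 881 became 347 with depth matched, 81 without cells of the cell cycle list and 263 after thinning, and 127 to 665 without 1 library. The lung count of 2 was 106 without the filter, 1 without cells holding *Mki67* or *Top2a* and 0 to 1 without 1 library. The 7 genes of the difference became 15 with DESeq2's size factors, 18 in DESeq2, 222 without the filter, 14 with depth matched, 11 without cells of the cell cycle list and 3 to 23 without 1 library. The causes were not tested, beyond the fewer cells that thinning, the cell cycle list and a left-out library leave.

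The 80 named genes called in the first run kept direction and side of the threshold in 1483 of their values under alternatives, kept only the direction in 394 and turned in 7. *Cd96* (0.028) and *Il2ra* (-1.06) turned without cells of the cell cycle list, *Bcl2* (-0.93), *Ccr8* (-3.57) and *Mcm5* (-0.012) after thinning, and *Il3* without cells of extra chains (-1.94), without the MLN 2 cell (-1.94), while without MLN 2, which held its UMIs in high-sum cells, it was 0. In the second run *Ccl1* turned (-2.87) without cells of the cell cycle list and *Il5* after thinning (-4.89) and without 1 library (-7.63 to 8.05). The share of high-sum cells in MLN 1 and MLN 2 was 3.32% and 4.71% after thinning, 4.63% and 7.43% without *Tnfrsf9* and 4.10% and 4.77% without *Egr2*. With clones set by TCRβ alone the share in expanded clones was 34.1% of high-sum and 37.9% of zero-sum cells in MLN 1. In MLN 2 it was then 24.3% of high-sum and 29.3% of zero-sum cells. With expansion counted in the MLN alone it was 24.7% of high-sum and 27.1% of zero-sum cells in MLN 1. In MLN 2 it was then 10.8% in both groups. Depth limits what is read of rare transcripts, since 3 UMIs stood for 2.17 CPM in high-sum cells of MLN 1 and 5.59 CPM in those of MLN 2.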
